A study of Mus musculus with 11 samples.

Results

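The map examined here is the sum of the contacts of 9 single mouse Th1 cells, and it was set against all other contacts of the pooled single-cell map that the authors deposited. In Hi-C, fragments of cut chromatin that touch in the nucleus are ligated and sequenced, and each ligated pair is 1 contact. The members were the contacts of cells 1 to 7, 9 and 10 on chromosomes 1 to 19. They numbered 170560, of 2235291 such contacts in the pool. Contacts of the pool that were in none of the 9 files, matched on both chromosomes and both positions in either order, formed the rest of the pool, with 2064801 contacts. The pool contained every contact of the 9 cells, and 7.63% of its autosomal contacts were theirs. None of the contacts of cell 8, cut with Dpn II, was in the pool, and that cell was left out.

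The 9 listed cells and the ensemble map share strain, tissue and treatment in the labels. All are Th1 cells, a helper T cell type, from spleens of male C57BL/6 mice, stimulated with anti-CD3, purified on anti-CD4 beads and expanded with IL-2. Per the labels, Bgl II was the enzyme for the 9 cells and for the ensemble alike. The pool has no sample labels of its own, and the sources used here do not give its number of cells. The rest held 109 times as many contacts as the mean listed cell. The labels name no separate animals or cultures, so p-values measure only the spread between these 9 cells, which may be technical. The rest entered each test as 1 value, without its own spread between cells.

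In the interphase nucleus each chromosome fills a territory of its own, and contacts within a chromosome (cis) become rarer with distance along it. Neighbouring stretches fold into domains that contact themselves more than their surroundings. On a larger scale, active and inactive chromatin separate into compartments, and contacts between chromosomes (trans) join the surfaces of territories. The comparison asks whether the 9 cells that were deposited one by one stand for the pooled cells in each of these layers.

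The 9 cells did not weigh equally in their sum. Autosomal contacts per cell ran from 10834 in cell 10 to 29970 in cell 1. Cell 1 gave 17.6% of the summed contacts but 6.78% of the trans contacts, while cell 2 gave 22.4% and cell 3 19.2% of the trans contacts. Means over cells, which weight cells equally, are therefore given beside the summed values.

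Contacts between chromosomes made up a somewhat smaller share in the listed cells than in the rest, by less than the spread between the cells. The trans share was 6.86% in cell 1, the lowest, 17.96% at the median and 25.4% in cell 2, the highest, against 20.1% in the rest. Cells 2, 3 and 4 lay above the rest and the other 6 cells below it. The summed cells held 17.8% trans contacts (95% Wilson interval 17.59 to 17.96, which covers counting error alone), and the rest 20.06% (20.003 to 20.11). The mean over cells was 17.6% ± 6.58 (SD, n = 9), 2.46 points under the rest, with an interval of the difference from -7.86 to 2.74 points. This difference did not pass (exact two-sided sign-flip permutation test over 9 cells, p = 0.289, adjusted over 7 values 0.378). Without cell 1 the mean was 1.12 points under the rest, and the summed trans share was 20.1%, against 20.06% in the rest. With grouped trans contacts of a cell counted once, and those of the rest left as they were, the mean difference was -4.14 points. Taking trans contacts from the cells alone can only lower their share, so this value is not a like-for-like comparison. For scale, the ensemble held 49.98% trans contacts, above each of the 9 cells and the rest.

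**Figure D1:**
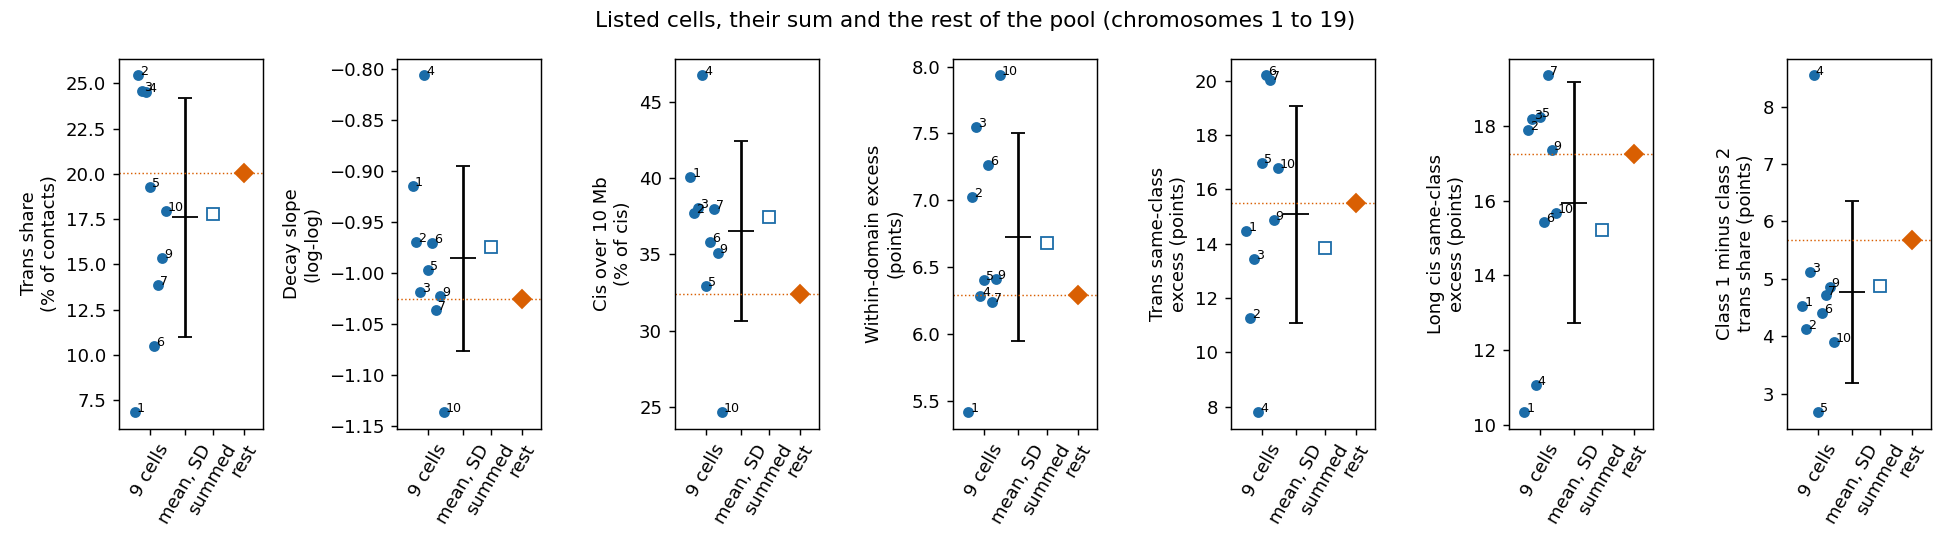
Each panel plots 1 measure on chromosomes 1 to 19, with its unit on the vertical axis. Numbered points are the 9 cells, the black bar is their mean with SD, the open square is the 9 cells summed, and the diamond with its dotted line is the rest of the pool. The rest lies inside the range of the cells in every panel, and in the panel of class differences only cell 4, at 8.54 points, lies above it.

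The summed cells held more long cis contacts than the rest, by a difference that did not pass over the single cells. In the summed cells 37.5% (95% Wilson interval 37.2 to 37.7) of cis contacts joined ends over 10 Mb apart, against 32.4% (32.3 to 32.5) in the rest. Cell 10 had the lowest share, 24.7%, the median was 37.7%, and cell 4 had the highest, 46.7%. All cells except cell 10 lay above the rest. The mean over cells, 36.6% ± 5.90 (SD, n = 9), was 4.17 points higher than the rest, with an interval from -0.516 to 8.47 points. It did not pass the threshold of 0.05 (exact sign-flip permutation test, p = 0.0625, adjusted 0.292). Without cell 10 the difference was 5.66 points, at the smallest p that 8 cells allow (exact test, p = 0.00781, adjusted 0.0547). Without cell 4 it was 2.90 points (exact test, p = 0.125, adjusted 0.292). With cis contacts under 20 kb left out of all maps it was 6.20 points (exact test, p = 0.0234, adjusted 0.164).

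The decay of contact density with distance, fitted on log scales from 100 kb to 10 Mb, was shallower in 7 of 9 cells than in the rest. The slope was -1.14 in cell 10, the steepest, -0.997 at the median and -0.807 in cell 4, the shallowest, against -1.03 in the rest. The mean slope was -0.986 ± 0.0902 (SD, n = 9), and its difference of 0.0396 from the rest, with an interval from -0.0275 to 0.111, was within the spread between cells (exact sign-flip permutation test, p = 0.246, adjusted 0.378). Without cell 4 the difference was 0.0172, and over 500 kb to 50 Mb it was 0.103 (exact test, p = 0.0156, adjusted 0.109). A single slope hid where along the chromosome the maps differed, so the cis contacts were also divided into distance classes.

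Between 631 kb and 3981 kb the listed cells had a smaller share of their cis contacts than the rest. Of 21 distance classes from 10 kb upward, 4 passed the test, 19% of those tested, and all 4 were lower in the cells, while 9 (42.9%) had an unadjusted p under 0.05. Together the 4 classes held 11.3% of the cis contacts of cell 7, the lowest, 12.7% at the median and 15.03% in cell 10, the highest, against 15.6% in the rest. These 4 classes were picked for being lower in the same cells, so their sum is a description and no separate support. In this sum all 9 cells lay under the rest. Cell 10, whose slope and share over 10 Mb lay on the other side of the rest from most cells, was the nearest. The mean of this summed share was 12.7% ± 1.06 (SD, n = 9), and the ensemble held 16.5%, nearer to the rest than to the cells.

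The class from 1585 to 2512 kb had the smallest SD between cells of the 21 classes. It held 2.83% of the cis contacts of cell 7, 3.01% at the median and 3.20% in cell 10, against 3.71% in the rest, so that the cells did not overlap the rest. The mean was 3.02% ± 0.125 (SD, n = 9), 0.689 points lower (exact sign-flip permutation test, adjusted p over 21 classes 0.041). The class from 2512 to 3981 kb, with 3.15% ± 0.301 (SD, n = 9) against 3.62% in the rest, was also lower in 9 of 9 cells.

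The classes from 631 to 1000 kb and from 1000 to 1585 kb were lower in 8 of 9 cells. Their means of 3.37% ± 0.620 and 3.18% ± 0.460 (SD, n = 9 each) stood against 4.30% and 3.94% in the rest, and cell 10 was the exception in both. The adjusted p of the exact test was 0.041 in all 4 classes. Each call was lost when any 1 of the other 8 cells was left out, with a smallest adjusted p of 0.0656 to 0.0820 (exact test). Cell 10, above the rest in both classes just named, then stayed among the 8 cells. The exact test on 8 cells cannot go below a raw p of 0.00781. Without cell 10, under the same limit, 12 classes passed, 10 lower and 2 higher in the cells. All 4 classes were lower on average whichever cell was left out.

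The lower share reached beyond these 4 classes. All 11 classes from 39.8 to 6310 kb were lower in the summed cells. From 251 to 398 kb and from 398 to 631 kb, 8 of 9 cells were lower, with means of 3.83% ± 0.822 and 3.65% ± 0.776 (SD, n = 9 each) against 4.69% and 4.58% in the rest (exact test, adjusted p = 0.0638 in both). From 10 to 15.8 kb the cells held a larger share, 3.08% ± 0.303 (SD, n = 9) against 2.79% in the rest (exact sign-flip permutation test, adjusted p = 0.064). From 25.1 to 39.8 Mb they held 9.15% ± 1.86 (SD, n = 9) against 7.97% (exact test, adjusted p = 0.141), and 7 of 9 cells were higher. All 5 classes beyond 15.8 Mb were higher in the summed cells, and none of the 5 passed. Cis contacts under 10 kb count in the whole of each map but lie in none of the 21 classes. Their share was larger in the summed cells than in the rest. Shares of 1 map add up to a whole, so a lower share at one distance raises the others, and a higher share lowers them.

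The distance profile from 10 kb upward can be put as 1 number. It is the share of the cis contacts in the 21 classes that would have to change class to turn one map into the other. Contacts under 10 kb were left out, and the shares of each map were scaled to the same whole. It was 7.48% between the summed cells and the rest, and 13.7% between the ensemble and the rest. Among single cells, cell 5 was the nearest to the rest, at 4.89%, the median was 8.24%, and cell 4 was the farthest, at 18.1%. Cell 1, at 13.7%, was the next farthest, and cells 4 and 1 also had the largest shares over 10 Mb.

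**Figure D2:**
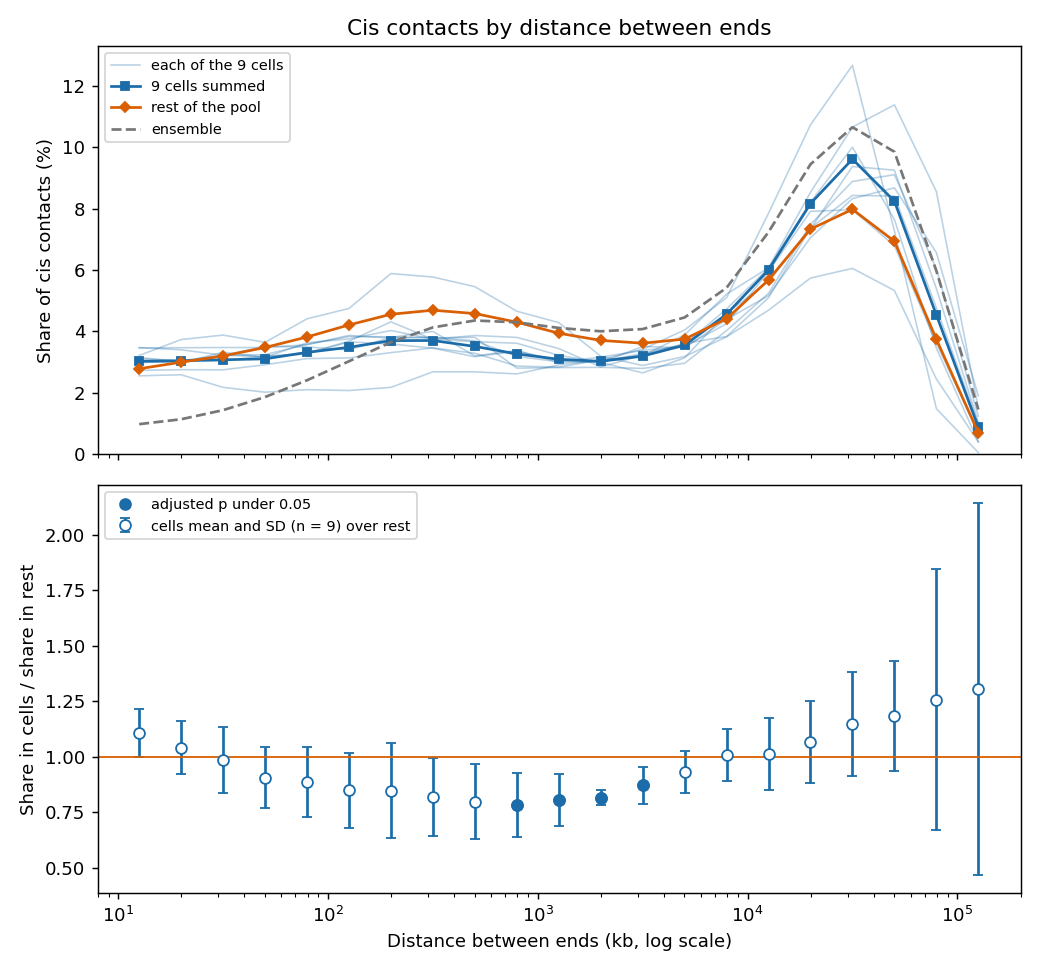
The upper panel plots the share of cis contacts in percent for each class of distance between ends, in kb on a log axis, for each of the 9 cells, the 9 cells summed, the rest of the pool and the ensemble. The lower panel plots the mean share of the cells over that of the rest, with the SD over 9 cells. Filled points mark the 4 classes past the threshold, where the cells lie under the line at 1.

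Domains called on the ensemble, 3387 with a median length of 650 kb, sorted the contacts of the listed cells and of the rest with a difference within the spread between cells. Of cis contacts between 50 kb and 1 Mb, the share with both ends in 1 domain was 65.4% in cell 4, 69.1% at the median and 69.7% in cell 6, against 67.1% in the rest. The summed cells had 68.7% (95% Wilson interval 68.1 to 69.2). Short contacts stay within a domain by distance alone, so the share that the distances of each map give was subtracted, 62.0% in the summed cells and 60.8% in the rest.

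The remaining excess was 5.42 points in cell 1, 6.41 at the median and 7.93 in cell 10, against 6.29 in the rest. The rest lay inside the range of the cells, with 6 cells above it. The mean of 6.73 points ± 0.779 (SD, n = 9) was 0.433 points higher, with an interval from -0.205 to 1.00 (exact sign-flip permutation test, p = 0.125, adjusted 0.292). With smaller domains, called with a 250 kb window, the difference was 1.08 points and passed (exact test, adjusted p = 0.0273).

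The shares were also compared within narrower distance classes. From 50 to 100 kb, 92.4% of contacts of the summed cells and 91.9% of those of the rest stayed in 1 domain, and from 100 to 200 kb 85.0% and 84.6%. From 200 to 400 kb the shares were 71.0% in the summed cells and 69.9% in the rest, and from 400 kb to 1 Mb 36.4% and 36.2%. The SD between cells was 0.678 to 1.93 points in these 4 classes, which were not tested one by one, and 4 to 6 of the 9 cells were above the rest in each.

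Compartments were compared with 2 classes of 1 Mb bins from the first eigenvector of the ensemble, of which class 1, 36.7% of 2368 bins, had the denser fragment ends. Trans contacts joined bins of the same class more often than the class make-up of each map's own trans ends gives. The excess was 7.81 points in cell 4, 14.9 at the median and 20.2 in cell 6, against 15.5 in the rest. The rest lay in the middle of the cells, with 4 above it and 5 below. The mean over cells was 15.1 points ± 3.99 (SD, n = 9), 0.413 points lower, with an interval from -3.59 to 2.72 (exact sign-flip permutation test, p = 0.758, adjusted 0.758). The sign turned without cell 2 (0.0666 points) and without cell 4 (0.496 points).

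The sum of the cells had an excess of 13.8 points. Cells 4 and 2, which gave many of its trans contacts, had the lowest excesses of the 9. Trans contacts between class 1 bins were 1.31 times as frequent as their class make-up gives in the summed cells and 1.33 times in the rest. Those between class 2 bins were 1.25 times as frequent in the summed cells and 1.29 times in the rest, and mixed contacts 0.723 and 0.690 times. In the ensemble the excess was 6.36 points, under each of the 9 cells.

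Cis contacts over 10 Mb were sorted by class as well. Their excess was 10.4 points in cell 1, 17.4 at the median and 19.3 in cell 7, against 17.3 in the rest. Cells 1 and 4, with the largest shares of cis contacts over 10 Mb, sorted them least. The mean of 15.9 points ± 3.22 (SD, n = 9) was 1.31 points lower than the rest, with an interval from -4.04 to 1.02 (exact sign-flip permutation test, p = 0.324, adjusted 0.378). The difference was -0.610 points without cell 1, -0.699 without cell 4 and -0.421 with classes called without balancing.

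Trans contacts were more common among ends in class 1 than among ends in class 2, in each of the 9 cells and in the rest. The trans share of class 1 ends was 20.7% in the summed cells and 23.4% in the rest. For class 2 ends it was 15.8% in the summed cells and 17.7% in the rest. The difference was 2.69 points in cell 5, 4.52 at the median and 8.54 in cell 4, against 5.68 in the rest, and 8 of 9 cells lay below the rest. The mean of 4.77 points ± 1.58 (SD, n = 9) was 0.912 points lower, with an interval from -1.90 to 0.366 (exact sign-flip permutation test, p = 0.125, adjusted 0.292). It was 1.38 points lower without cell 4, and with classes called without balancing, which left 56.2% of bins in the same class, the sign turned (0.184 points). Class 1 bins also held fewer of all contact ends in 8 of 9 cells, 40.6% in the summed cells against 41.7% in the rest.

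Shares of contact ends per chromosome differed between the maps by amounts that did not pass. The share of a chromosome in the summed cells was 0.944 to 1.03 times that in the rest. Chromosome 7 was the lowest, with 5.05% ± 0.503 (SD, n = 9) of ends against 5.38% in the rest (exact sign-flip permutation test, p = 0.0625, adjusted 0.922). Of 19 chromosomes 0 passed, 0.0% of those tested, and 0 passed at an unadjusted p under 0.05.

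The trans share was lower in the summed cells than in the rest on 19 of 19 chromosomes, which share the same cells. Cell 1 was the lowest cell on 18 of them, and without it the sum was lower on 8 of 19. It ran from 14.7% on chromosome 1 to 24.02% on chromosome 19 in the summed cells, and from 16.8% on chromosome 1 to 27.7% on chromosome 19 in the rest. Across the 19 chromosomes the 2 maps followed each other (Pearson r = 0.963, as a description). The gap was widest on chromosome 17, which carries the major histocompatibility complex, with 20.3% ± 6.85 (SD, n = 9) in the cells against 24.4% in the rest. Next were chromosome 11 (19.4% ± 8.15 against 23.3%) and chromosome 19 (23.9% ± 8.95 against 27.7%). It was narrowest on chromosome 6 (16.9% ± 6.65 against 17.96%), chromosome 2 (15.9% ± 6.21 against 17.6%) and chromosome 8 (17.6% ± 8.67 against 19.4%). Of 19 chromosomes 0 passed, 0.0% of those tested, with a lowest adjusted p of 0.515 (exact sign-flip permutation test), and 0 passed unadjusted.

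Windows of 10 Mb gave a finer scale. In 229 windows with at least 50 contact ends in each cell, the trans share ran from 10.1% to 31.8% in the summed cells and from 11.1% to 36.2% in the rest. The 2 maps ranked windows alike (Pearson r = 0.880, Spearman rho = 0.853), and the summed cells were lower in 198 windows, or in 110 without cell 1. Windows are not independent replicates, so these are descriptions. Of the windows tested 0 passed, 0.0%, while 5 had an unadjusted p under 0.05 (2.18%). The lowest adjusted p was 0.722 (exact sign-flip permutation test). A lone window at the smallest p of this exact test with 9 cells, 0.00391, could not pass after the adjustment.

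The largest shortfall was at the start of chromosome 11, up to 10000000 on mm9, which was also the window richest in trans contacts in the rest. Its trans share was 11.7% in cell 1, the lowest, and 38.0% in cell 2, the highest, with a sum of 26.4% against 36.2% in the rest, and 7 of 9 cells were lower. On chromosome 4 from 130000001 to 140000000 the summed cells had 19.3% against 26.8% in the rest, and on chromosome 19 from 10000001 to 20000000 20.0% against 27.1%. The largest surpluses were smaller. They were on chromosome 2 from 100000001 to 110000000 (15.7% against 13.0%), and on chromosome 6 from 40000001 to 50000000 (20.4% against 18.1%) and from 120000001 to 130000000 (21.0% against 19.2%). These windows were picked for their differences, and none passed. Domains were finer still, and 1566 of them had 100 or more ends in the summed cells, over which the trans shares of both maps had Pearson r = 0.669. The SD over these domains was 5.79 points in the summed cells and 5.00 in the rest, and counting error alone gives 3.34 points at the depth of the summed cells.

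**Figure D3:**
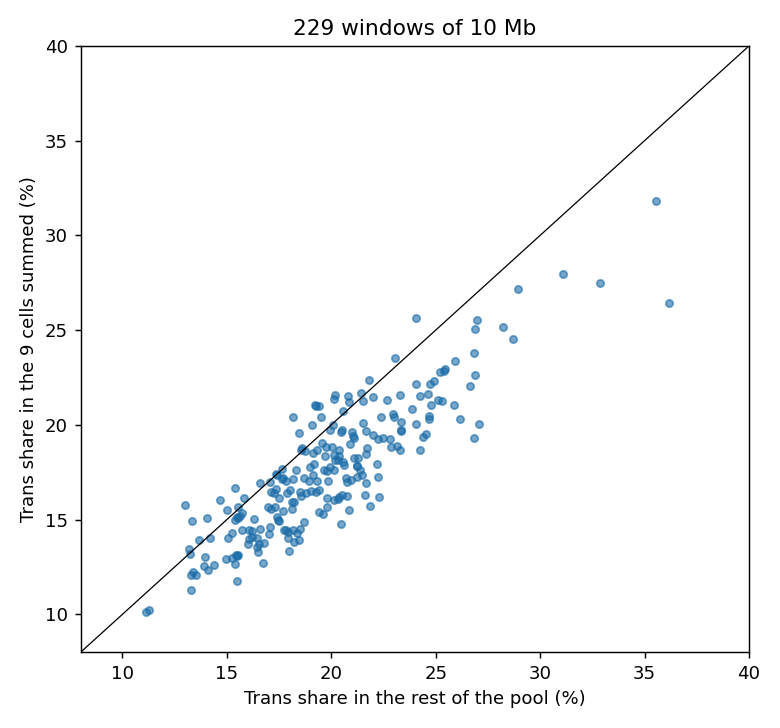
Each point is 1 of 229 windows of 10 Mb, with the trans share of its contact ends in percent in the rest of the pool on the horizontal axis and in the 9 cells summed on the vertical axis. The line marks equal shares, and 198 windows lie below it (110 when cell 1 is left out of the sum).

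Which chromosomes met differed from cell to cell, and the sum of 9 cells kept part of this unevenness. Relative to the shares of the rest over all pairs of the 19 chromosomes, the shares of the summed cells deviated by 31.7% after counting noise was subtracted. Single cells deviated by 56.4% in cell 9, the least, and 121% in cell 1, the most, with a mean of 85.7% ± 24.6 (SD, n = 9). Adding up the deviations of the 9 cells as a root of the sum of squares, weighted by trans contacts, gave 32.4%. The rest deviated by 11.01% from the ensemble. Cells 1 and 6 had contacts on 134 and 140 pairs, and the summed cells on all pairs.

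Of all pairs 0 passed the test, 0.0% of those tested, while 18 (10.5%) had an unadjusted p under 0.05, of which 17 were lower in the cells. The sign-flip test assumes differences symmetric about 0, but pair shares cannot fall below 0 and can be skewed. On chromosomes 6 and 9 the share was 0.513% at the median and 3.90% in cell 5, against 0.618% in the rest, with 5 cells below it. The split by direction is therefore a description. The lowest adjusted p was 0.334 (exact sign-flip permutation test over 9 cells, Benjamini-Hochberg over all pairs). A lone pair at the smallest p of this exact test with 9 cells, 0.00391, could not pass after this adjustment. The count of 0 thus does not show that the pairs are alike. In the summed cells 16 pairs held over 1.5 times the contacts that the shares of the rest give and 27 pairs less than 1/1.5 of them. The full range was from 0.428 to 2.03 times.

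The cell with the most contacts on a pair gave 33.7% of them at the median over all pairs, and over 50% in 2 of the 16 pairs just counted. The 5 pairs with the largest excess in units of counting error were above the rest in 4 to 7 of the 9 cells. Chromosomes 6 and 9 shared 381 contacts in the summed cells against 187 expected from the rest, and cell 5 gave 142 of them. Chromosomes 4 and 8 shared 408 against 212 expected, with 139 from cell 4, 103 from cell 2 and 0 from cell 7. Chromosomes 15 and 17 shared 268 against 140 expected, of which cell 4 gave 133, or 49.6%. Without cell 4 that pair fell to 1.14 times its expected number.

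Chromosomes 8 and 12 shared 286 contacts against 160 expected, and chromosomes 14 and 17 shared 253 against 137 expected. Cell 2 gave the most in both, 95 and 78 contacts. Of the 16 pairs over 1.5 times, 4 were still over it when the cell that gave the most was left out, among them 8 and 12 at 1.54 times and 14 and 17 at 1.65 times. None of the named excesses passed, and their unadjusted p ran from 0.105 (chromosomes 8 and 12) to 0.508 (chromosomes 15 and 17, exact test).

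The 5 pairs with the largest deficit in units of counting error were lower than the rest in 7 to 9 of the 9 cells each. The skew of pair shares described above bears on such counts of cells too. Chromosomes 5 and 8 shared 79 contacts against 185 expected, 0.428 times, with 0 in cell 6 and 23 in cell 3, the most, and the share was lower than in the rest in 9 of 9 cells. That gave the smallest p that 9 cells allow (exact test, p = 0.00391, adjusted 0.334). This pair was 1 of 2 that lay above the rest in 0 of the 9 cells. Chromosomes 4 and 14 had 87 against 178 expected and were lower in 8 of 9 cells. Chromosomes 1 and 6 (153 against 270 expected), 4 and 11 (133 against 240) and 9 and 17 (82 against 172) were lower in 7 of 9 cells each.

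**Figure D4:**
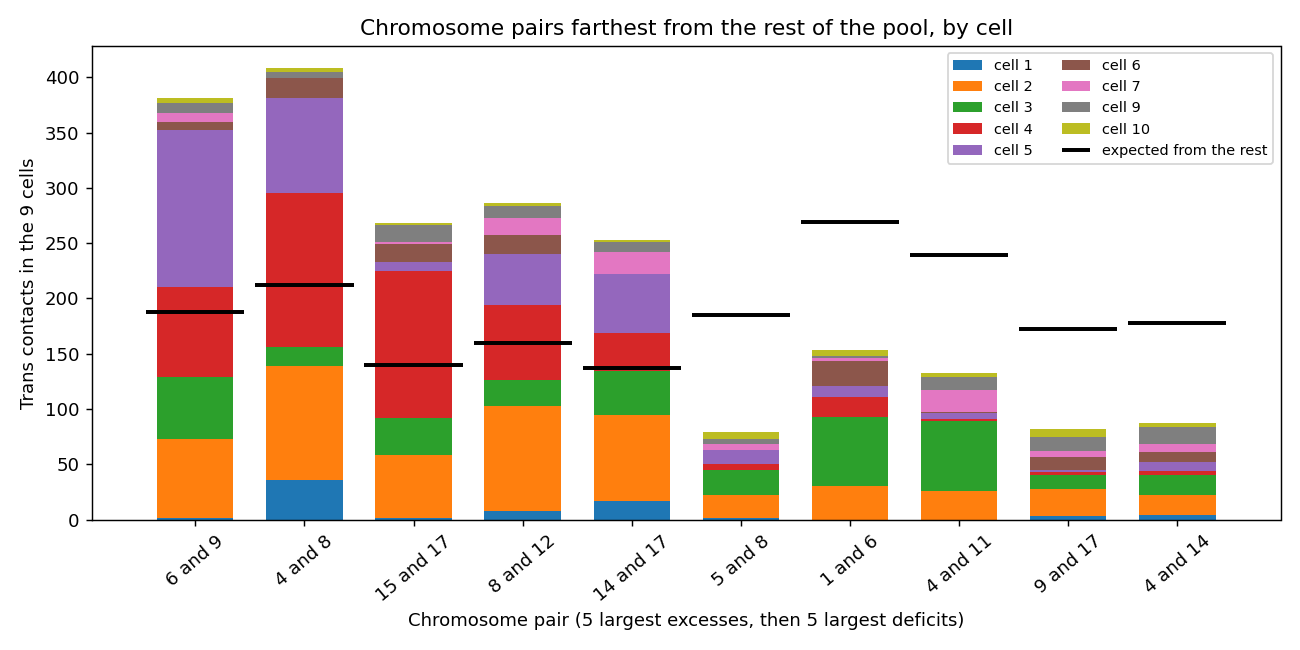
Stacked bars give the trans contacts of the 9 cells, by cell, on the 5 chromosome pairs with the largest excess and the 5 with the largest deficit against the rest of the pool, in units of counting error. Black lines mark the number expected from the shares of the rest. Cell 5 gave 142 of the 381 contacts on chromosomes 6 and 9, and cell 4 133 of the 268 on chromosomes 15 and 17.

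Dividing each pair by what the trans totals of both chromosomes give removed the effect of chromosome size. The observed over expected values then ranged from 0.382 to 2.11 in the summed cells and from 0.780 to 1.37 in the rest. Across all pairs they hardly followed each other (Pearson r = 0.130, Spearman rho = 0.112), while the rest and the ensemble did (r = 0.625, rho = 0.492). These correlations are unlike in depth, with 30316 trans contacts in the summed cells, 414159 in the rest and 25229000 in the ensemble. The SD over pairs was 0.326 in the summed cells and 0.0831 in the rest, and scatter between few cells lowers such a correlation. Before the division, the shares of the summed cells and the rest had r = 0.592. These are descriptions, and pairs share chromosomes. The pair with the highest value in the rest, chosen after the values were seen, was chromosomes 11 and 19, at 1.43 in the summed cells, 1.37 in the rest and 1.18 in the ensemble. The next in the rest, chromosomes 17 and 19, was at 0.824 in the summed cells against 1.22 in the rest. The lowest pair of the rest, chromosomes 2 and 19, was at 0.770 in the summed cells and 0.780 in the rest.

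**Figure D5:**
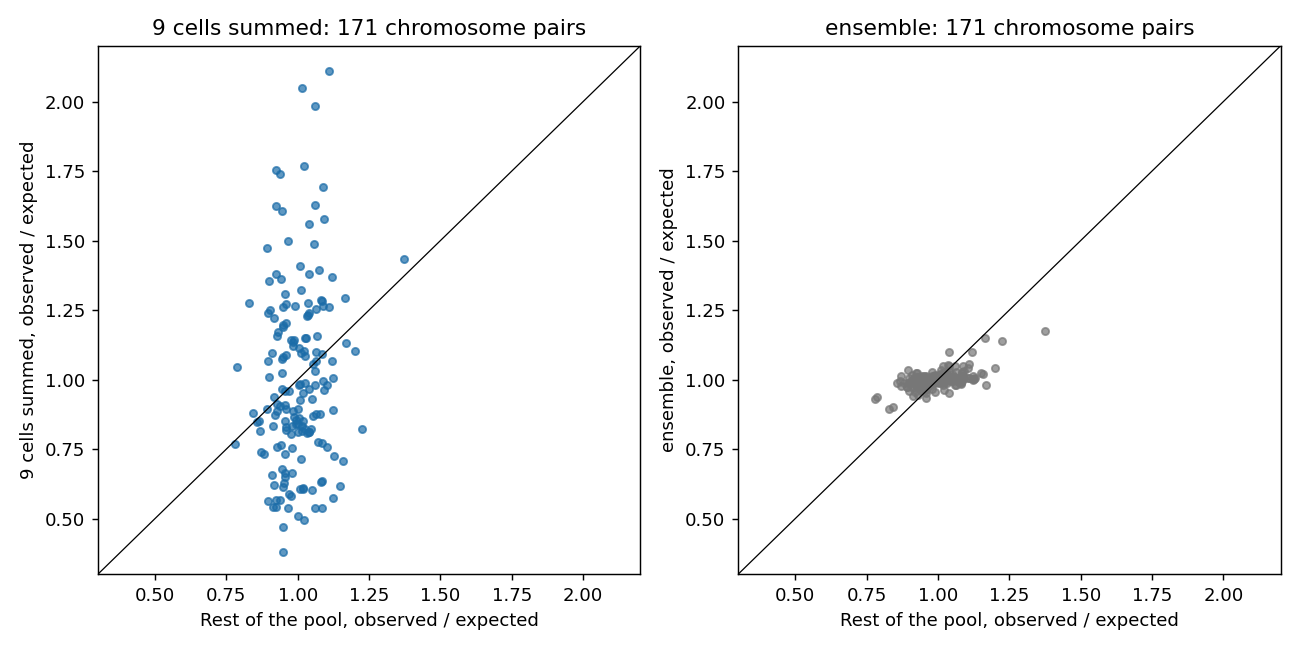
Each point is 1 chromosome pair, as trans contacts over the number that the trans totals of both chromosomes give. The horizontal axis is the rest of the pool in both panels, the vertical axis is the 9 cells summed (left) and the ensemble (right), and the line marks equal values. The summed cells spread from 0.382 to 2.11, and the rest from 0.780 to 1.37.

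Chromosomes 12, 15, 16, 18 and 19, which carry ribosomal RNA genes in C57BL/6 mice and can meet at nucleoli, held 2.94% of trans contacts among themselves in cell 5, 4.01% at the median and 7.79% in cell 1, against 4.22% in the rest. Of their 10 pairs 4 were above 1 in the summed cells, with a median of 0.938 times the rest, where 77 of all pairs were above 1 with a median of 0.960. The gene-dense chromosomes 7, 11, 17 and 19 held 2.88% of trans contacts in the summed cells and 3.26% in the rest, and 7 of 9 cells were lower. After division by chromosome totals the values were 1.03 in the summed cells and 1.05 in the rest. Of their 6 pairs 1 was above 1 in number of contacts against the rest.

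The 5 longest chromosomes held 9.58% of trans contacts among themselves in the summed cells against 8.23% in the rest. Cell 5 was the lowest, at 7.33%, and the only cell below the rest, the median was 10.3%, and cell 6 the highest, at 12.5%. Of their 10 pairs 7 were above 1, with a median of 1.201 times, and after division by chromosome totals they were at 1.18 in the summed cells and 1.02 in the rest. The 5 shortest chromosomes held 4.40% in the summed cells and 4.14% in the rest, with 4 of 10 pairs above 1.

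Trans contacts of 1 cell often lay beside each other. Pairs of trans contacts with both ends within 1 Mb of each other, and no shared fragment end, numbered 35.7 per 1000000 pairs of contacts within cell 9, the least, and 281 within cell 1, the most. The mean was 101 ± 76.8 (SD, n = 9). Between a cell and the rest the rate was 2.19 in cell 4, the lowest, and 3.00 in cell 10, the highest, with a mean of 2.61 ± 0.299. Between a cell and the other 8 listed cells it was 2.28 ± 0.209 (SD, n = 9), lower than with the rest in 8 of 9 cells. Cell 9 was the exception, at 2.65 with the other cells against 2.60 with the rest. Cells share partners in these rates, so no test was made.

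In the same unit, the rate within the summed cells was 12.4, 5.01 times their rate with the rest, which was 2.47. The rate within the rest was 3.16, 1.28 times that same rate. The excess within the summed cells was thus 14.4 times that within the rest. Such a rate falls as a map holds more cells, since fewer pairs of contacts then come from 1 cell. The number of cells in the rest is not given, so this ratio does not compare grouping within cells.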

How the data were processed

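The deposited files hold positions in bp, 1 line per contact, per the file headers, with no read number. Per the submitters' processing notes, positions refer to mm9. What aligned and filtered the reads is not given in the sources used. The pool was made by the authors, and which cells it holds beyond the 9 is not labelled. Identical contacts in more than 1 of the 9 cells numbered 70, all in cis, and the pool lists each once. Any effect of such single listing on the short cis shares of the rest was not tested. The rest lacks, by construction, any contact identical to one of the cells.

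Computation used matplotlib 3.10.9, pandas 2.3.3, scipy 1.17.1, numpy 2.4.6 and Python 3.11.15. Domains were minima of ensemble insulation (50 kb bins, 500 kb window, prominence 0.1) after 50 balancing iterations on contacts within 1.2 Mb. Classes were signs of the first eigenvector per chromosome at 1 Mb, oriented by density of ensemble fragment ends, and bins under 0.2 of the median row sum were left out. Expected shares were computed, not drawn. Distance classes numbered 5 per factor of 10.

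Each cell's value minus that of the rest entered an exact two-sided sign-flip permutation test (512 sign patterns), with Benjamini-Hochberg adjustment over 7 single values or over all features of a kind. With 9 cells this exact test cannot go below p = 0.00391. A lone feature at that value cannot pass when 19 or more features are adjusted together. Intervals of differences are the shifts that this test does not reject at 95%. The sign-flip test, its adjustment and interval, and the deviation of pair shares were tested on simulated data. Other steps, among them domains, classes, matching to the pool and neighbour rates, were not. The members, regions and chromosome groups were chosen with earlier results of these data known. Named were the 5 pairs farthest above and below the rest in units of counting error, and the 3 chromosomes and 3 windows at either end. Regions carry no gene names, as an annotation of this build was not used here.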

Additional observations from a re-analysis of the deposited data

Results flagged for a closer look

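Of 67 sets of values over the 9 cells, 9 had a cell far from all others. Chance gives about 1 in 20 only for independent sets that were not picked. The named pairs, chromosomes and windows were picked for large differences in these data, and many sets overlap. The count therefore has no chance rate to be set against. Cell 4 stood apart in how far class 1 exceeds class 2 in trans share (8.54 points, next 5.12), in cis contacts from 39.8 to 63.1 kb (2.02%, next 2.92%) and in the share of trans contacts on chromosomes 15 and 17 (2.79%, next 0.923%). Cell 10 stood apart in the class 1 share of contact ends (43.9%, next 41.2%) and in cis contacts from 251 to 398 kb (5.77%, next 4.001%), from 398 to 631 kb (5.46%, next 3.87%) and from 1000 to 1585 kb (4.29%, next 3.44%). Cell 1 held 7.85% of its cis contacts from 10 to 15.8 Mb (next 6.07%), and cell 5 held 3.90% of its trans contacts on chromosomes 6 and 9 (next 1.70%). Distance classes of 1 cell are shares of the same whole, so those of cell 10 are not separate observations.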

How the results depend on the processing

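Of 90 alternative settings of the 7 single values, 1 passed the threshold: domains from a 250 kb window gave a within-domain excess 1.08 points above the rest (exact test, adjusted p = 0.0273). The difference changed sign in 3: the trans same-class excess without cell 2 (0.0666 points) and without cell 4 (0.496), within a range of -1.05 to 0.496 over cells left out, and the class difference in trans share with classes called without balancing (0.184 points). Only 56.2% of bins kept their class without balancing. Most of the 90 settings left out 1 cell, and the exact test on 8 cells cannot go below p = 0.00781. A lone value at that p cannot pass after adjustment over 7 values. The cis share over 10 Mb without cell 10 (5.66 points) and the class difference without cell 4 (-1.38 points) reached it (exact test, adjusted p = 0.0547 in both). Sums without each cell were added after seeing the data: the summed trans share was below the rest on 8 chromosomes and in 110 windows without cell 1, and on 19 chromosomes and in 172 to 218 windows without any other. The count of distance classes passed ranged from 0 to 12 with 1 cell left out, and was 11 with 10 classes per factor of 10. Counts of pairs, chromosomes and windows passed stayed at 0 under each setting tried, with 11 to 19 pairs at an unadjusted p under 0.05 (exact sign-flip permutation test). Where 1 cell was left out, several features of a kind would have to reach the smallest p together for any to pass. A count of 0 there does not show that a result is stable. The 10 named chromosome pairs kept their direction under 12 settings each. Among these were cells thinned to 10834 contacts, and grouped contacts counted once in the cells but not in the rest. Removing pool contacts within 10 bp of a contact of the cells left the distance classes passed at 4. No paired analysis was possible because only 1 group has replicates. Depth limits the windows, of which 43 had 100 contact ends in each cell.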
